A study of Rattus norvegicus with 16 samples.

Results

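Schwann cells purified from the rat sciatic nerve 7 days after a crush were compared with Schwann cells purified 3 days after it, across every gene of the deposited tables, to follow the cells out of the early injury state. The members were the 4 libraries whose labels give Schwann cells at day 7 or day 3, with 2 libraries for each day, of 16 libraries in the series. The other Schwann cell libraries came from uncrushed nerves (2 libraries) and from day 5 (2 libraries), and 8 libraries of whole nerve covered the same 4 conditions. All rats carried the label of postnatal day 18, the age at which the left sciatic nerve was crushed. The segment distal to the crush was collected without a sham group. Each sample pooled at least 10 nerves. Immunopanning first removed cells that bound antibodies to CD45 or Thy1 and then selected cells that carried the O4 antigen, so each Schwann cell library holds the cells that this procedure kept, while whole nerve was not panned. Animals collected at day 7 were older than those collected at day 3, and time after the crush cannot be told apart from age. The labels do not say that uncrushed nerves were matched in age to crushed ones, so comparisons with uncrushed cells carry the same limit. By the study's account, an uncrushed nerve also yielded fewer cells than a crushed one. The labels do not say that the 2 libraries of a group came from separate experiments, so the p-values measure the spread between these libraries only. In bulk RNA, a smaller share of cells of one kind and less RNA per cell cannot be told apart.

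Schwann cells wrap peripheral axons in myelin, and after a crush they give up the myelin program, digest myelin debris, divide and take on a repair state in which they secrete trophic factors and guide regrowing axons. Once axons regrow into the distal nerve, the cells return to myelination under the transcription factors Sox10, Pou3f1 (Oct6) and Egr2 (Krox20). The libraries do not measure axon regrowth or remyelination, and the comparison of day 7 with day 3 shows which transcripts of these programs had moved by then.

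Of 31038 genes in the tables, 14961 had enough counts to be tested in the Schwann cell libraries, and 3140 of them (21.0%) differed between the days at an adjusted p below 0.05. Calls came from the quasi-likelihood test of edgeR, fitted to the 8 Schwann cell libraries and adjusted by the Benjamini-Hochberg method. At day 7, 1532 genes (10.2% of those tested) were higher and 1608 (10.7%) were lower. These shares are the background for the counts of every gene list that follows. The median change was 0.89 on the log2 scale among the higher genes and −0.72 among the lower ones. Changes of more than 4-fold were found for 242 higher genes and 105 lower genes. The libraries of the 2 days did not overlap for 9520 genes (63.6%), so a lack of overlap alone says little about any one gene. Leaving out 1 library left 1772 genes called without day 3 replicate 1, 1533 without day 3 replicate 2, 1598 without day 7 replicate 1 and 2182 without day 7 replicate 2. Counts of list members without 1 library are given in this same order of libraries where they moved most. Depth, as the sum of expected counts, was 15806398 and 27562637 at day 3 and 17850534 and 12334355 at day 7, within a range of 10555067 to 27562637 over the 16 libraries.

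**Figure D1:**
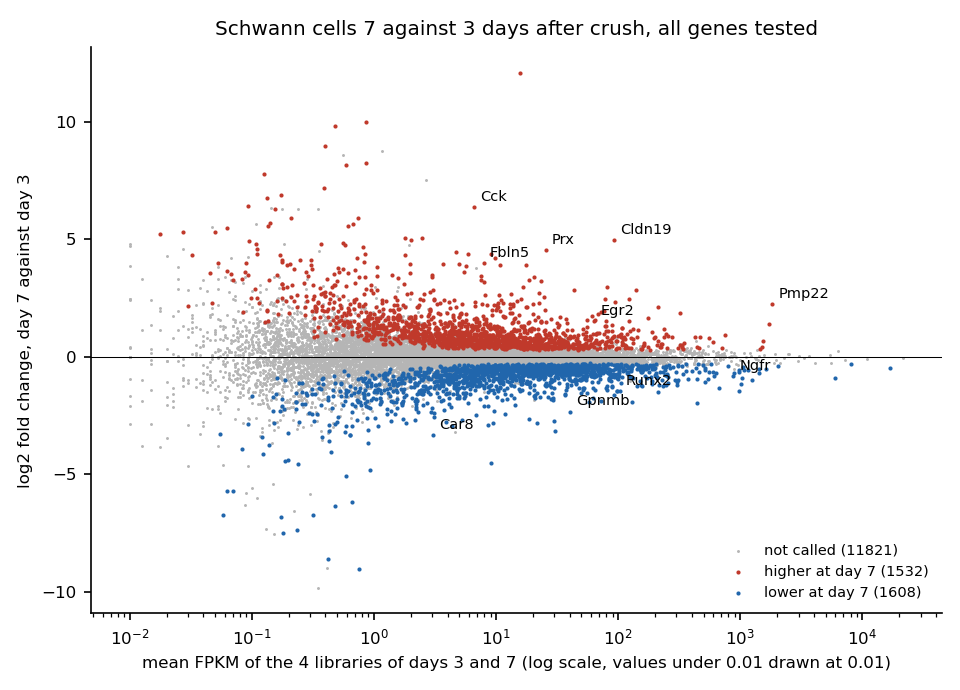
Each point is 1 of 14961 genes, with the mean FPKM of the 4 libraries of days 3 and 7 on a log x axis and the log2 fold change of day 7 against day 3 on the y axis. Red points are the 1532 genes higher at day 7 and blue points the 1608 genes lower at day 7, and Cldn19, Prx and Pmp22 stand high among well expressed genes.

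Markers of the Schwann cell lineage were abundant at both days. The summed level of 14 Schwann lineage markers was 4557 and 4236 FPKM (fragments scaled to gene length and library size) at day 3 and 6651 and 6025 FPKM at day 7. The 24 markers of macrophages and monocytes, 23 of them in the tables, summed to 21.0 and 103 FPKM at day 3 and to 29.5 and 26.1 FPKM at day 7, against 2561 to 4206 FPKM in the whole nerve at these days. The marker sum of day 3 replicate 2 therefore stood above those of the other 3 libraries. Ptprc, which encodes CD45, was at 0.18 and 1.29 FPKM at day 3 and at 0.17 and 0.15 FPKM at day 7. No macrophage marker of the 16 tested was higher at day 7, and 1 (Lyve1) was lower. Leaving out 1 library gave none lower of 19 tested without day 3 replicate 2, none of 21 without day 7 replicate 1, 1 of 21 without day 7 replicate 2 and 6 of 21 without day 3 replicate 1. Fibroblast markers summed to 318 and 358 FPKM at day 3 and to 375 and 474 FPKM at day 7, and those of endothelial cells to between 1.81 and 5.73 FPKM. The part of these cells in any result was not tested, and values without day 3 replicate 2 are given for Ccl3, Mcpt1l1, Serping1, Fn1 and Col3a1.

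Myelin proteins formed the group with the largest share of higher genes. Of 31 genes listed as structural myelin proteins, 30 were tested, 20 were higher at day 7 and 1 was lower, with a median log2 change of 0.82 against 0.01 over all genes tested. The background was 10.2% of genes higher and 10.7% lower. Between 17 and 20 members were higher when 1 library was left out. The uncrushed level was not yet regained: 23 of the 30 were below uncrushed Schwann cells at day 3, and 19 still were at day 7, against 25.7% and 21.9% of all genes tested.

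The steepest rise among them was that of Cldn19, a claudin of the tight junctions within Schwann cell myelin. Its level was 6.13 and 6.51 FPKM at day 3 and 208 and 149 FPKM at day 7, a log2 change of 4.95 ± 0.18 (SE, adjusted p = 2.03e-06). Uncrushed cells had 226 and 243 FPKM, so at day 7 Cldn19 lay 0.50 below them on the log2 scale by the fit. Periaxin (Prx), which links the Schwann cell membrane to dystroglycan around myelinated axons, was at 1.93 and 2.04 FPKM at day 3 and at 58.3 and 39.6 FPKM at day 7 (log2 4.53 ± 0.21, adjusted p = 2.54e-06). Mag, an adhesion protein of the myelin membrane that faces the axon, was at 0.91 and 0.70 FPKM at day 3 and at 19.9 and 15.1 FPKM at day 7 (log2 4.38 ± 0.22, adjusted p = 3.52e-06). For these genes, the day 7 libraries lay far above the day 3 libraries, and Prx and Mag remained below the uncrushed libraries.

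Other myelin transcripts rose by smaller factors from a higher base. Pmp22, a compact myelin protein whose dosage is critical in the human nerve, was at 619 and 583 FPKM at day 3 and at 3353 and 2754 FPKM at day 7 (log2 2.25 ± 0.12, adjusted p = 4.64e-06). Mbp, the cytoplasmic protein that compacts myelin, was at 382 and 410 FPKM at day 3 and at 799 and 633 FPKM at day 7 (log2 0.78 ± 0.13, adjusted p = 0.00281). Mal, a raft proteolipid that sorts myelin membrane, was at 32.9 and 28.7 FPKM at day 3 and at 111 and 83.6 FPKM at day 7 (log2 1.57 ± 0.15, adjusted p = 0.000109), against 571 and 476 FPKM in uncrushed cells. The only lower member was Dag1, the dystroglycan precursor, at 592 and 636 FPKM at day 3 and 535 and 527 FPKM at day 7 (log2 −0.30 ± 0.09, adjusted p = 0.0440). That call was lost when any 1 library was left out.

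**Figure D2:**
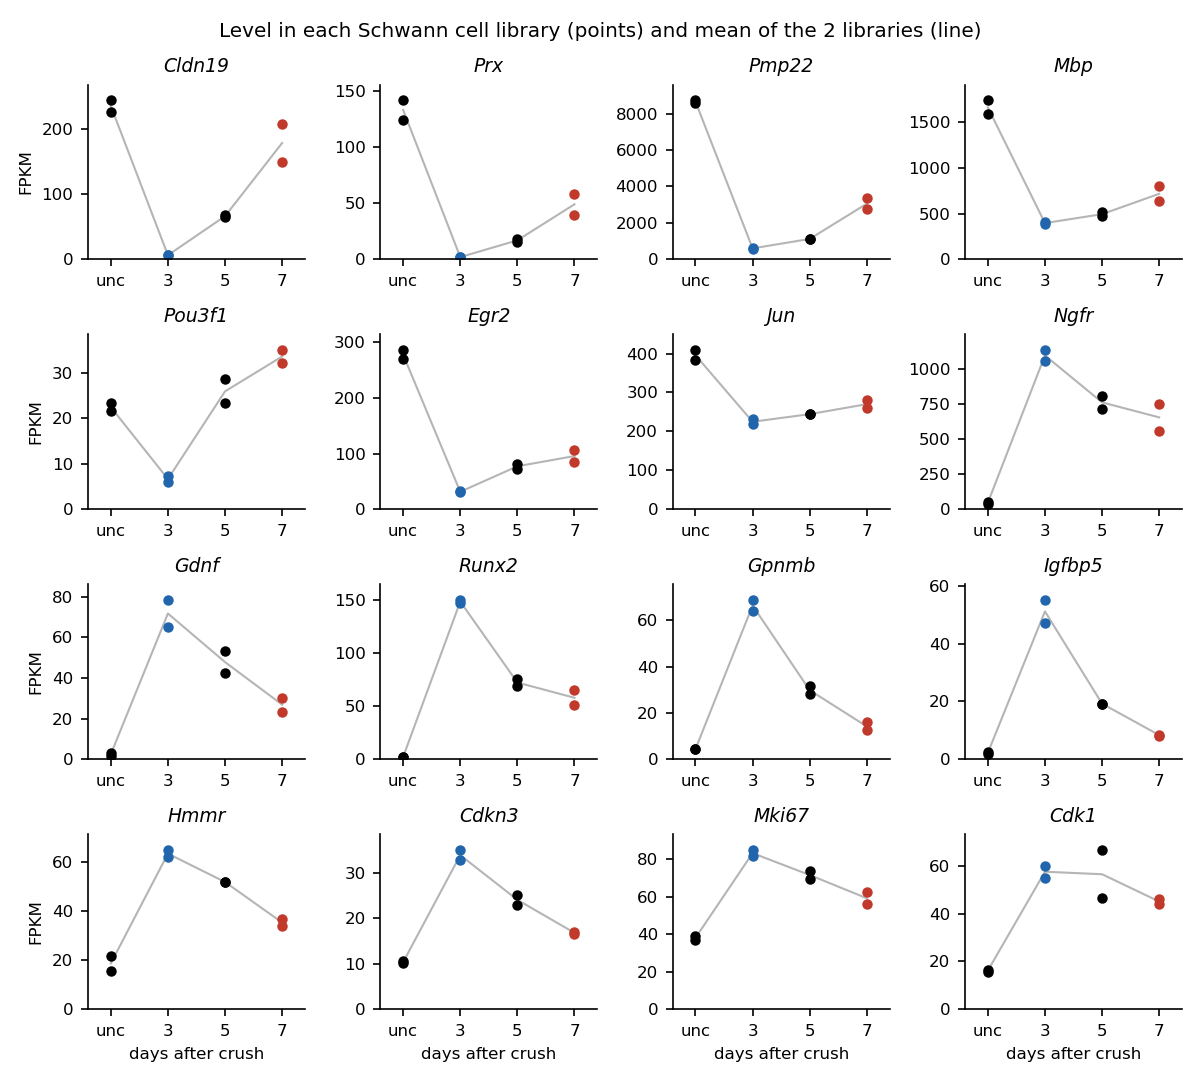
Level in FPKM (y axis, from 0) of 16 genes in each Schwann cell library (points) of uncrushed nerves (unc) and 3, 5 and 7 days after crush (x axis), with the mean of the 2 libraries as a line, day 3 in blue and day 7 in red. The 4 myelin genes of the top row rose from day 3 to day 7 without reaching the uncrushed points, and Gpnmb and Gdnf fell toward theirs.

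The genes that supply myelin lipids were split. Of 33 tested genes of fatty acid and myelin lipid synthesis, 13 were higher and 6 lower at day 7, with a median log2 change of 0.27, and without 1 library 5, 2, 3 and 4 were lower. Fa2h, which hydroxylates the fatty acids of myelin galactolipids, was at 3.91 and 3.10 FPKM at day 3 and at 19.6 and 14.0 FPKM at day 7 (log2 2.19 ± 0.22, adjusted p = 0.000158). Sgms2, a sphingomyelin synthase, was lower, with 1.97 and 2.19 FPKM at day 3 and 0.95 and 1.19 FPKM at day 7 (log2 −0.94 ± 0.30, adjusted p = 0.0489). The Sgms2 call was lost when any 1 library was left out.

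Most cholesterol synthesis genes remained below the uncrushed level. Of 26 tested genes, 8 were higher and 4 lower at day 7, with a median log2 change of 0.21. The lower count was 3, 2, 1 and 2 without 1 library. Of these 26, 24 were below the uncrushed level at day 3 and 25 at day 7, against 25.7% and 21.9% of all genes tested. Tm7sf2, a sterol reductase, rose from 0.30 and 0.20 FPKM to 1.23 and 1.27 FPKM (log2 2.27 ± 0.41, adjusted p = 0.00391). Lbr, which combines a sterol reductase with a nuclear membrane anchor, fell from 9.05 and 9.43 FPKM to 4.51 and 5.89 FPKM (log2 −0.94 ± 0.18, adjusted p = 0.00594), a call lost without day 7 replicate 1 (adjusted p = 0.0619). The count of higher genes in this list was 3 without day 3 replicate 1, without day 3 replicate 2 and without day 7 replicate 1.

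**Figure D3:**
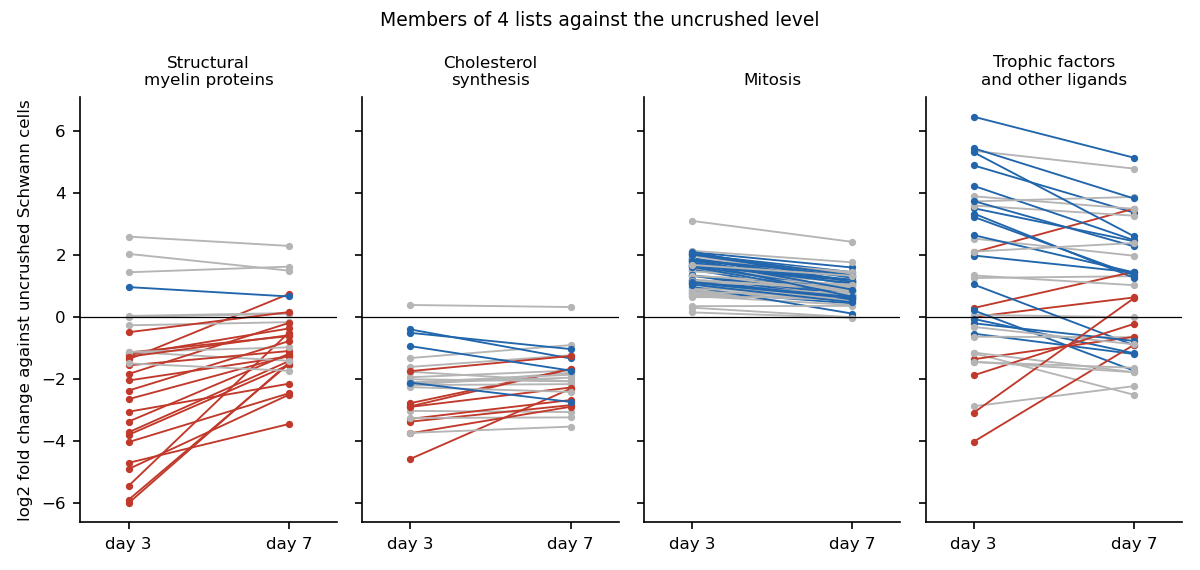
Each line is 1 gene, with its log2 difference from the uncrushed group on the y axis at day 3 (left) and day 7 (right), for 30 structural myelin genes, 26 genes of cholesterol synthesis, 64 of mitosis and 39 trophic factors and other ligands. Red lines were higher and blue lines lower at day 7 than at day 3, grey lines did not pass that test, and Edn3, which had no count in uncrushed cells, was left out.

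Genes of the axon and Schwann cell contact moved in both directions, beside 10.2% of all genes tested higher and 10.7% lower. Among 26 tested genes of nodes, paranodes and axoglial adhesion, 7 were higher and 10 lower, the higher count being 4 without day 3 replicate 2. Gldn, gliomedin, which gathers sodium channels at the node from the Schwann cell side, rose from 3.90 and 3.51 FPKM to 21.9 and 16.6 FPKM (log2 2.29 ± 0.20, adjusted p = 6.74e-05). Cadm2, an adhesion protein of the nectin-like family, fell from 59.4 and 49.7 FPKM to 19.0 and 19.9 FPKM (log2 −1.58 ± 0.16, adjusted p = 0.000174). Cadm2 was thus farther from its uncrushed level (213 and 169 FPKM) at day 7 than at day 3.

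Among 38 tested ion channel genes, 12 were higher and 6 lower, and 3 were lower without day 3 replicate 2 or day 7 replicate 1. Kcna2, a voltage-gated potassium channel subunit, rose from 1.15 and 1.05 FPKM to 20.5 and 16.3 FPKM (log2 4.20 ± 0.18, adjusted p = 2.10e-06). Kcnj10, an inward rectifier that takes up potassium in glia, rose from 3.73 and 3.37 FPKM to 33.2 and 25.5 FPKM (log2 2.95 ± 0.17, adjusted p = 6.81e-06) and was at 19.8 and 22.0 FPKM in uncrushed cells. Kcnn4, a calcium-activated potassium channel, fell from 1.22 and 1.20 FPKM to 0.33 and 0.32 FPKM (log2 −1.92 ± 0.56, adjusted p = 0.0376), a call lost when any 1 library was left out.

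Transcription factors of myelination were higher at day 7 more often than lower. Of 28 tested members, 10 were higher and 2 lower, and leaving out 1 library gave 4 or 5 higher members. Pou3f1, which moves cells into the promyelinating stage, was at 5.95 and 7.36 FPKM at day 3 and at 32.3 and 35.0 FPKM at day 7 (log2 2.23 ± 0.15, adjusted p = 1.88e-05). This was above the uncrushed 23.3 and 21.6 FPKM (log2 0.54, adjusted p = 0.0113). Egr2, which switches on myelin genes, was at 32.2 and 30.7 FPKM at day 3 and at 85.5 and 106 FPKM at day 7 (log2 1.51 ± 0.13, adjusted p = 6.54e-05), still below the uncrushed 270 and 286 FPKM. Egr2 is also on the list of immediate-early genes, which handling of cells during purification can change, and that part was not tested. Whole nerve, which was not panned, had 4.38 and 6.1 FPKM of Egr2 at day 3 and 15.7 and 19.6 FPKM at day 7. Sox10, the lineage factor of Schwann cells, was at 67.2 and 63.6 FPKM at day 3 and at 85.3 and 95.5 FPKM at day 7 (log2 0.37 ± 0.12, adjusted p = 0.0453), and this call was lost when any 1 library was left out. Nab1, a corepressor that binds Egr proteins, fell from 7.39 and 6.41 FPKM to 3.51 and 3.64 FPKM (log2 −1.04 ± 0.17, adjusted p = 0.00199).

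Among factors of the repair and immature states, the share of lower genes was near the 10.7% over all genes tested. Of all genes tested, 10.2% were higher. Of 36 tested members, 9 were higher at day 7 and 4 were lower, with a median log2 change of 0.23, and 2 were lower without either day 3 library. Jun, the regulator of the repair state, was at 232 and 218 FPKM at day 3 and at 260 and 280 FPKM at day 7 (log2 0.17 ± 0.10, adjusted p = 0.244), while uncrushed cells had 383 and 408 FPKM. Jun is also on the list of immediate-early genes, which handling of cells during purification can change, and that part was not tested. Whole nerve, which was not panned, had 49.0 and 52.0 FPKM of Jun at day 3 and 35.1 and 45.35 FPKM at day 7. Sox2, a factor of immature Schwann cells, was at 48.9 and 47.9 FPKM at day 3 and at 42.0 and 53.8 FPKM at day 7, so the days overlapped (log2 −0.11 ± 0.16, adjusted p = 0.673). Runx2 was the called member with the deepest fall, from 147 and 149 FPKM to 50.6 and 64.8 FPKM (log2 −1.46 ± 0.12, adjusted p = 6.31e-05), and remained far above the uncrushed 2.10 and 2.16 FPKM. Id2, an inhibitor of basic helix-loop-helix factors, rose from 5.04 and 3.98 FPKM to 24.1 and 25.6 FPKM (log2 2.39 ± 0.17, adjusted p = 2.42e-05), against 76.2 and 82.3 FPKM in uncrushed cells.

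Ligands that Schwann cells secrete after injury were lower at day 7 more often than higher. Of 40 tested trophic factors and other ligands, 17 were lower and 7 higher, with a median log2 change of −0.56. Without 1 library 12, 11, 10 and 15 were lower and 4, 6, 6 and 6 higher. Gdnf, a survival factor for motor and sensory neurons, fell from 65.2 and 78.2 FPKM to 23.4 and 30.3 FPKM (log2 −1.52 ± 0.22, adjusted p = 0.00110). Betacellulin (Btc), a ligand of ErbB receptors, fell from 89.3 and 98.6 FPKM to 24.2 and 36.1 FPKM (log2 −1.75 ± 0.22, adjusted p = 0.000631). Galanin (Gal), a neuropeptide, fell from 7.75 and 10.1 FPKM to 1.34 and 1.61 FPKM (log2 −2.71 ± 0.47, adjusted p = 0.00319). These ligands were low in uncrushed cells, at most 3.26 FPKM for Gdnf, 6.25 FPKM for Btc and 0.42 FPKM for Gal.

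Wnt5a, a noncanonical Wnt ligand, rose from 0.04 and 0.13 FPKM to 1.17 and 1.47 FPKM (log2 3.70 ± 0.50, adjusted p = 0.000783), levels close to the uncrushed 1.17 and 0.67 FPKM. Dhh, the hedgehog ligand through which Schwann cells organise the perineurium, rose from 60.4 FPKM in each day 3 library to 106 and 93.2 FPKM (log2 0.63 ± 0.10, adjusted p = 0.00162). Edn3, endothelin 3, had no count in uncrushed cells and fell from 37.3 and 48.2 FPKM to 12.4 and 13.8 FPKM (log2 −1.81 ± 0.19, adjusted p = 0.000302). Its pooled counts at day 7 were still at least 60.9-fold above the uncrushed group, taken at a floor of 3 counts over that group.

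On the receiving side, 12 of 43 tested receptors for growth and trophic factors were higher and 7 lower, with 4 lower without day 7 replicate 1. Ngfr, the p75 neurotrophin receptor that marks repair Schwann cells, fell from 1132 and 1059 FPKM to 558 and 751 FPKM (log2 −0.84 ± 0.17, adjusted p = 0.00745). It remained above the uncrushed 54.0 and 38.0 FPKM, and its fall missed the threshold without day 7 replicate 1 (adjusted p = 0.0623). Gfra1, the GDNF coreceptor, was at 443 and 435 FPKM at day 3 and at 475 and 468 FPKM at day 7 (log2 0.18 ± 0.12, adjusted p = 0.298). Gfra2, the coreceptor for neurturin, fell from 14.3 and 12.9 FPKM to 5.16 and 5.53 FPKM (log2 −1.41 ± 0.17, adjusted p = 0.000404). Ednrb, the receptor for endothelins, rose from 135 and 114 FPKM to 507 and 536 FPKM (log2 1.86 ± 0.13, adjusted p = 2.60e-05) and lay above the uncrushed 236 and 170 FPKM. The brain-angiogenesis adhesion receptor Adgrb1 rose from 0.06 and 0.07 FPKM to 1.54 and 1.21 FPKM (log2 4.21 ± 0.29, adjusted p = 2.40e-05).

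**Figure D4:**
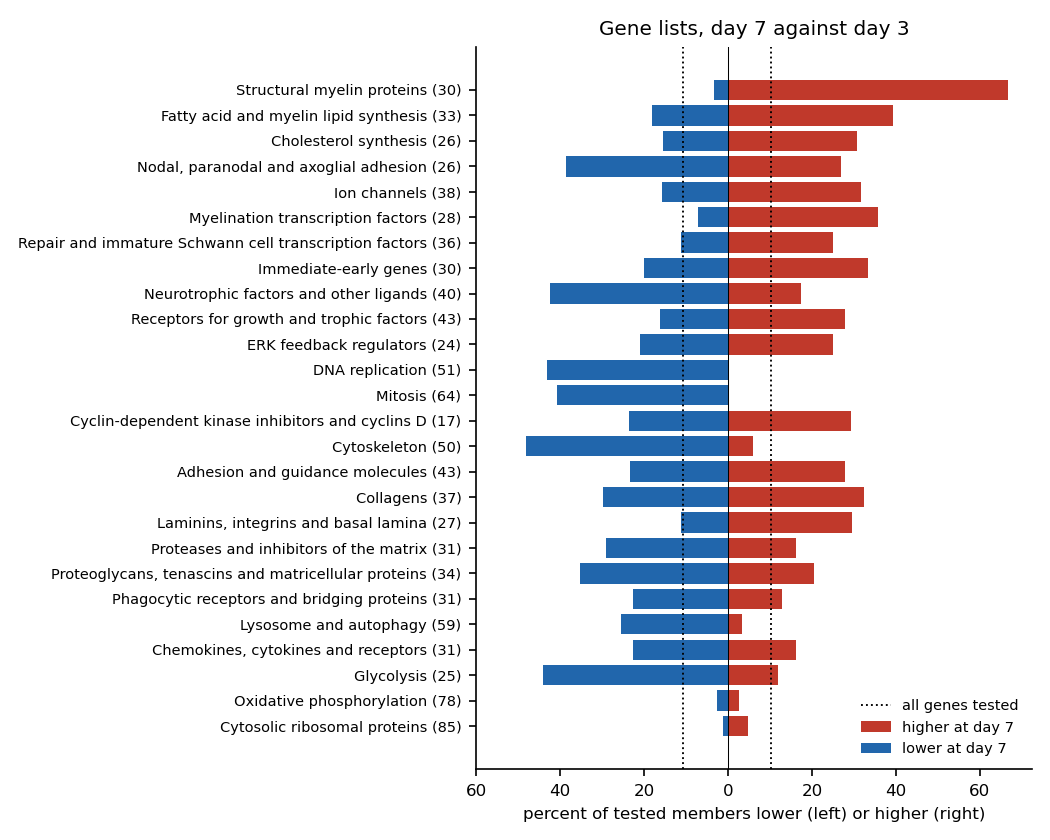
Bars show, for 26 gene lists (number tested in brackets), the percent of tested members that were higher at day 7 (right, red) or lower (left, blue), and dotted lines mark the shares over all genes tested, 10.2% and 10.7%. Structural myelin proteins reach farthest to the right, while DNA replication and mitosis have bars on the left side only.

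Among genes of mitosis and DNA replication every call was toward a lower level at day 7, although most members did not pass the test. None of 64 tested mitosis genes was higher and 26 were lower, with a median log2 change of −0.46. None of 51 DNA replication genes was higher and 22 were lower, with a median of −0.45. The lower mitosis count was 17 without day 3 replicate 1, day 3 replicate 2 or day 7 replicate 2 and 19 without day 7 replicate 1, and the lower replication count was 10, 9, 15 and 10 in the same order. The changes were shallow, lying between −1.12 and 0.10 on the log2 scale in the mitosis list, and at day 7, 58 of the 64 mitosis genes and 31 of the 51 replication genes were still above the uncrushed level, against 25.0% of all genes tested.

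The deepest fall in the mitosis list was that of Cdkn3, a phosphatase that acts on cyclin-dependent kinases, from 32.9 and 35.1 FPKM to 17.1 and 16.6 FPKM (log2 −1.12 ± 0.14, adjusted p = 0.000617). Mki67, the proliferation antigen Ki-67, fell from 81.7 and 84.9 FPKM to 55.8 and 62.5 FPKM (log2 −0.59 ± 0.10, adjusted p = 0.00261) and remained above the uncrushed 39.1 and 36.96 FPKM. Cdk1, the kinase that drives entry into mitosis, was at 60.1 and 55.1 FPKM at day 3 and at 46.0 and 44.1 FPKM at day 7. Its change of −0.45 ± 0.14 on the log2 scale did not pass (adjusted p = 0.0542), although the libraries of the 2 days did not overlap.

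The brakes of the cell cycle were mixed. Of 17 tested cyclin-dependent kinase inhibitors, D cyclins and related genes, 5 were higher and 4 lower, with 2 lower without day 7 replicate 2. Cdkn1c, the inhibitor p57, rose from 3.86 and 3.69 FPKM to 11.6 and 12.5 FPKM (log2 1.59 ± 0.16, adjusted p = 0.000175), above the uncrushed 6.93 and 5.73 FPKM. Ccnd1, cyclin D1, fell from 354 and 328 FPKM to 169 and 168 FPKM (log2 −1.11 ± 0.11, adjusted p = 0.000192). Gadd45a, a stress-induced regulator of growth arrest, fell from 959 and 929 FPKM to 433 and 379 FPKM (log2 −1.31 ± 0.15, adjusted p = 0.000355), against 86.8 and 111 FPKM in uncrushed cells.

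The DNA before the starts of the mitosis genes was searched for short elements known from cell cycle promoters. The search covered the 250 bases before each start in the RefSeq promoter table (GRCr8) and both strands, for TTTGAA, the CHR element of late cell cycle genes, and for CCAAT, the box bound by NF-Y. Of the 64 mitosis genes, 55 matched an entry by symbol. TTTGAA was present in 28 of these 55 (50.9%) and in 16.2% of all 33469 promoters. CCAAT was present in 39 of the 55 (70.9%) and in 34.0% of all promoters. Among the 26 lower genes, 23 had an entry, 13 of them with TTTGAA and 18 with CCAAT. Of the 51 replication genes, 40 had an entry, 3 of them with TTTGAA (7.5%) and 25 with CCAAT (62.5%). These matches are letters in a window and not measured sites.

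The last 160 bases before the start are given here for 4 lower mitosis genes and for Mcm5, a replication gene without TTTGAA, to show how the elements sit in promoters of the lists. Capitals mark both elements in either orientation, and each window is written 5′ to 3′ on the strand of its gene. In Mki67 one match of TTTGAA shares letters with a reversed match of the NF-Y box. The genes were picked after their windows were searched. The windows are from RefSeq, build GRCr8, at chr15:22502226-22502385 (plus strand) for Cdkn3, chr10:25665216-25665375 (minus strand) for Hmmr, chr1:199952594-199952753 (minus strand) for Mki67, chr1:143659321-143659480 (plus strand) for Prc1 and chr19:13488653-13488812 (plus strand) for Mcm5.
Cdkn3: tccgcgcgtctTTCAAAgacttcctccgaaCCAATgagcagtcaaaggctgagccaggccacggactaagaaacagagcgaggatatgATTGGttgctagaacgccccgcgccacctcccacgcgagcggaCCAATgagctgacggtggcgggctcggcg
Hmmr: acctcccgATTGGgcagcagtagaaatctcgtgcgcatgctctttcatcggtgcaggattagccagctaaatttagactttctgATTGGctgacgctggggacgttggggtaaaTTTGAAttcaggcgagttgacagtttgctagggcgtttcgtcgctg
Mki67: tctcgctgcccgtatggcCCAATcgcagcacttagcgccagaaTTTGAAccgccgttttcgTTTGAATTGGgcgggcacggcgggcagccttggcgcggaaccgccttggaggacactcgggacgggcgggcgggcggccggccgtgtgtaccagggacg
Prc1: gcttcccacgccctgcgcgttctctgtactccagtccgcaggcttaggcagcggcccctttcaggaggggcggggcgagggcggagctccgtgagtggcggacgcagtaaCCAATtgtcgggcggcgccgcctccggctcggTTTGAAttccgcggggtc
Mcm5: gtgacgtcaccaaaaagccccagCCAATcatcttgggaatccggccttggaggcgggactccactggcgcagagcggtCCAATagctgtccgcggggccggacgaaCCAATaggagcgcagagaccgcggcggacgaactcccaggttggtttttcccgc

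Hmmr, a hyaluronan receptor that also binds the mitotic spindle, and Prc1, which bundles microtubules in the dividing cell, were both among the 26 lower mitosis genes. Hmmr was at a mean of 63.3 FPKM at day 3 and of 35.3 FPKM at day 7 (log2 −0.94), and Prc1 at 80.5 and 56.1 FPKM (log2 −0.60). Mcm5, a subunit of the replicative helicase, was at 10.5 and 7.10 FPKM (log2 −0.66) and also passed the test. The first 3 windows hold 3, 2 and 2 CCAAT boxes, and that of Mcm5 holds 3.

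The AP-1 element TGANTCA was in 6 of 42 ligand promoters (14.3%) and in none of 25 promoters of the repair transcription factors, against 6.3% of all promoters. The sterol element TCACNCCAC was in none of 19 cholesterol synthesis promoters and in 1.0% of all promoters. CCAAT was in 15 of those 19 (78.9%), against 34.0% of all promoters.

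Cytoskeleton and glycolysis genes were lower at day 7 more often than higher. Of 50 tested cytoskeleton genes, 24 were lower and 3 higher, with a median log2 change of −0.47, and without 1 library 16, 17, 17 and 20 were lower and 2, 1, 2 and 2 higher. Gap43, a growth-associated protein of neurons and repair Schwann cells, fell from 10.9 and 11.9 FPKM to 1.48 and 3.02 FPKM (log2 −2.47 ± 0.29, adjusted p = 0.000388). Vimentin (Vim), the main intermediate filament of these cells, was at 8961 and 8548 FPKM at day 3 and at 7343 and 7636 FPKM at day 7 (log2 −0.32 ± 0.09, adjusted p = 0.0389). Nefm, a neurofilament subunit, was the largest rise, from 49.0 and 47.5 FPKM to 116 and 106 FPKM (log2 1.12 ± 0.18, adjusted p = 0.00245), against 12.5 and 14.1 FPKM in uncrushed cells. Of 25 glycolysis genes, 11 were lower and 3 higher, and without 1 library 6, 6, 9 and 8 were lower. Pgam1, a phosphoglycerate mutase, fell from 306 and 289 FPKM to 173 and 149 FPKM (log2 −0.98 ± 0.11, adjusted p = 0.000242). Aldoc, an aldolase of the nervous system, rose from 7.38 and 7.80 FPKM to 24.2 and 21.2 FPKM (log2 1.48 ± 0.12, adjusted p = 4.53e-05), against 79.2 and 78.4 FPKM in uncrushed cells.

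Few members of other housekeeping lists were called. Of 85 cytosolic ribosomal protein genes, 4 were higher and 1 lower, and of 78 genes of oxidative phosphorylation, 2 were higher and 2 lower, shares below those of all genes. Without 1 library 1, 1, 0 and 3 ribosomal genes were higher and 0, 0, 1 and 0 lower, and of the oxidative phosphorylation genes 0, 1, 1 and 1 were higher and 1 was lower. Rpl3, a protein of the large ribosomal subunit whose reads may be shared with pseudogenes, rose by 0.41 ± 0.10 on the log2 scale, from 363 and 361 FPKM to 540 and 489 FPKM (adjusted p = 0.0140), a call lost without either day 3 library or day 7 replicate 1. Cox5b, a subunit of cytochrome c oxidase, fell from 291 and 329 FPKM to 183 and 208 FPKM (log2 −0.77 ± 0.14, adjusted p = 0.00401).

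Genes that clear and digest debris were lower more often than higher. Of 59 lysosome and autophagy genes, 15 were lower and 2 higher, against 10.7% and 10.2% of all genes tested. At day 3, 39 of the 59 were above the uncrushed level, and at day 7, 29 were, against 26.9% and 25.0% of all genes tested. Cathepsin B (Ctsb) was at 402 and 404 FPKM at day 3 and at 195 and 216 FPKM at day 7 (log2 −1.06 ± 0.09, adjusted p = 8.05e-05), against 137 and 129 FPKM in uncrushed cells. Atp6v0d2, a subunit of the vacuolar proton pump, had 54 pooled counts at day 3 and 1 at day 7, a ratio of 40.1 with an exact 95% counting interval of 6.9 to 1614.6. This and other counting intervals and floors cover counting error of amplified reads only, and replicate libraries differed by more than that, with a chi-square per degree of freedom of 15.21 at day 3 and 13.41 at day 7. Without 1 library 12, 8, 10 and 12 members were lower and none was higher.

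Of 31 phagocytic receptors and bridging proteins, 7 were lower and 4 higher, and without 1 library 6, 4, 6 and 6 were lower and 1, 1, 1 and 2 higher. Megf10, an engulfment receptor, rose from 10.9 and 8.72 FPKM to 24.5 and 23.1 FPKM (log2 1.19 ± 0.24, adjusted p = 0.00657), a call lost without day 3 replicate 2 (adjusted p = 0.0626). Galectin 3 (Lgals3), a lectin of phagocytic cells, fell from 317 and 321 FPKM to 146 FPKM in each day 7 library (log2 −1.23 ± 0.10, adjusted p = 4.99e-05). Gpnmb, a glycoprotein of phagosomes and lysosomes, fell from 64.1 and 68.7 FPKM to 12.4 and 15.8 FPKM (log2 −2.33 ± 0.13, adjusted p = 6.81e-06). In the phagocytic list the share of higher genes was near the 10.2% over all genes tested.

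Among 31 chemokines, cytokines and their receptors, 7 were lower and 5 higher, but only 1 was lower without day 3 replicate 2 and 1 without day 7 replicate 1. Ccl3, a chemokine for monocytes, was at 4.06 and 28.4 FPKM at day 3 and at 1.91 and 3.19 FPKM at day 7. Its change of −2.83 ± 0.78 on the log2 scale (adjusted p = 0.0290) was −0.78 without day 3 replicate 2 (adjusted p = 0.458), and the call was also lost without either day 7 library (adjusted p = 0.182 and 0.0868). Mcpt1l1, a mast cell protease, was likewise at 5.96 and 23.8 FPKM at day 3 and at 2.08 and 2.33 FPKM at day 7, with a change of −2.88 ± 0.63 (adjusted p = 0.0102) that was −1.52 without that library (adjusted p = 0.113) and also lost its call without either day 7 library (adjusted p = 0.0848 and 0.0543). Il34, a ligand of the CSF1 receptor, rose from 0.77 and 1.04 FPKM to 8.34 and 4.88 FPKM (log2 2.40 ± 0.29, adjusted p = 0.000515), against 7.95 and 9.67 FPKM in uncrushed cells. Over all genes tested, 10.2% were higher and 10.7% lower, and the complement genes were called at shares near these. Of 15 complement genes, 1 was higher and 2 lower, none was higher without 1 library and 3, 0, 0 and 0 were lower, and Serping1, an inhibitor of the first complement proteases, went from −1.62 to −0.80 on the log2 scale without day 3 replicate 2. Its call was lost there and without either day 7 library (adjusted p = 0.363, 0.189 and 0.122).

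The matrix changed in both directions, beside 10.2% of all genes tested higher and 10.7% lower. Among 37 collagens and their enzymes, 12 were higher and 11 lower, with 7 lower without day 3 replicate 2. Col2a1, a fibrillar collagen best known from cartilage, rose from 1.11 and 1.28 FPKM to 15.5 and 12.01 FPKM (log2 3.42 ± 0.16, adjusted p = 2.49e-06) and was at 17.6 and 16.03 FPKM in uncrushed cells. Col8a2, a short-chain collagen, fell from 4.41 and 5.37 FPKM to 1.15 and 0.88 FPKM (log2 −2.35 ± 0.28, adjusted p = 0.000412). Col3a1, a fibrillar collagen of soft tissue, rose from 20.3 and 35.8 FPKM to 125 and 89.3 FPKM (log2 1.84 ± 0.26, adjusted p = 0.00102; 2.33 without day 3 replicate 2), against 1023 and 1015 FPKM in uncrushed cells. Fbln5, an elastic fibre protein, rose from 0.58 and 1.1 FPKM to 17.4 and 12.5 FPKM (log2 3.9985 ± 0.28, adjusted p = 2.23e-05). Whole nerve had 65.0 and 66.3 FPKM of Fbln5 at day 3 and 57.7 and 64.95 FPKM at day 7. The part of other nerve cells in this rise was not tested. Of 34 proteoglycans, tenascins and matricellular proteins, 12 were lower and 7 higher. Fibronectin (Fn1) fell from 10.5 and 21.1 FPKM to 3.14 and 3.78 FPKM (log2 −2.30 ± 0.28, adjusted p = 0.000493), and by 1.68 on the log2 scale without day 3 replicate 2 (adjusted p = 0.000567).

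Of 27 laminin, integrin and basal lamina genes, 8 were higher and 3 lower (6, 5, 6 and 7 higher and 1, 0, 0 and 1 lower without 1 library), and Itga8, an integrin subunit, rose from 1.33 and 1.37 FPKM to 5.28 and 4.14 FPKM (log2 1.71 ± 0.16, adjusted p = 0.000117). Of 43 adhesion and guidance genes, 12 were higher and 10 lower, with 6 lower without day 3 replicate 1. Ephb1, an ephrin receptor, rose from 0.20 and 0.13 FPKM to 4.44 and 2.40 FPKM (log2 4.33 ± 0.36, adjusted p = 6.36e-05). Epha5, another ephrin receptor, fell from 3.10 and 2.52 FPKM to 0.60 and 0.61 FPKM (log2 −2.06 ± 0.19, adjusted p = 9.00e-05). Ntm, neurotrimin, an adhesion protein of neurons and glia, rose from 2.79 and 1.72 FPKM to 34.9 and 31.5 FPKM (log2 3.90 ± 0.17, adjusted p = 2.10e-06), above the uncrushed 14.6 and 14.4 FPKM. Over all genes tested, 10.2% were higher and 10.7% lower, and the lower share of the laminin and integrin list was near the latter.

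Signaling lists held calls in both directions, beside 10.2% of all genes higher and 10.7% lower. Of 30 immediate-early genes, 10 were higher and 6 lower. Of the 30, 23 were below the uncrushed level at day 3 and 24 at day 7, against 25.7% and 21.9% of all genes tested. Handling of cells during purification can change immediate-early genes, by the study's account of its method, and its part in these levels was not tested. Nr4a1, an orphan nuclear receptor, rose from 10.3 and 12.3 FPKM to 33.1 and 37.8 FPKM (log2 1.54 ± 0.14, adjusted p = 7.69e-05), against 90.1 and 104 FPKM in uncrushed cells. Of 24 feedback regulators of ERK signaling, 6 were higher and 5 lower, and 3, 3, 3 and 4 were lower without 1 library. Dusp10, a phosphatase of stress-activated kinases, fell from 298 and 322 FPKM to 106 and 127 FPKM (log2 −1.5035 ± 0.16, adjusted p = 0.000192), and remained above the uncrushed 19.3 and 17.0 FPKM. Of 33 genes of PI3K, Akt and mTOR signaling, 5 were higher and 3 lower, shares near those of all genes (4, 4, 3 and 5 higher and 0, 0, 0 and 1 lower without 1 library), and Ddit4, an inhibitor of mTOR complex activity, rose from 0.08 and 0.43 FPKM to 3.63 and 3.76 FPKM (log2 3.56 ± 0.49, adjusted p = 0.000899). Of 41 genes of AGE-RAGE signaling, 6 were higher and 8 lower (3, 5, 5 and 7 higher and 5, 5, 6 and 5 lower without 1 library), with Col3a1 the largest rise and Fn1 the deepest fall. Both are also on the list of fibroblast markers and reached 1857 to 2213 FPKM and 363 to 495 FPKM in the whole nerve at these days, and the part of fibroblasts in these changes was not tested.

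Ranked by size among called genes with at least 5 FPKM in each library of the higher day and no overlap between the days, and with unnamed (LOC or RGD) and mitochondrial records left out, the 12 largest rises were those of Cck, Cldn19, Prx, Icoslg, Mag, Ibsp, Kcna2, Fbln5, Adamts17, Slc36a2, Kif19 and Ntm. The record left out, LOC100912604, had a larger fitted rise than any of them and is described with Srm. Cck, which encodes the neuropeptide cholecystokinin, had 3 pooled counts at day 3 and 203 at day 7, a ratio of 91.0 with an exact 95% counting interval of 30.7 to 445.1 that leaves out the spread between libraries, and its 14.0 and 12.2 FPKM at day 7 exceeded the uncrushed 2.5 and 3.39 FPKM. Adamts17, a metalloprotease, rose from 0.61 and 0.54 FPKM to 10.5 and 8.39 FPKM (log2 3.96 ± 0.16, adjusted p = 2.10e-06), against 56.3 and 53.0 FPKM in uncrushed cells. Kif19, a kinesin, rose from 1.56 and 1.04 FPKM to 21.1 and 19.5 FPKM (log2 3.91 ± 0.17, adjusted p = 2.10e-06), above the uncrushed 12.2 and 13.1 FPKM.

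Among the 12 deepest falls by the same rule were those of Srm, Car8, Mcpt1l1, Nkd2, Fyb, Igfbp5, Gal, Evi2a, Gap43, Spon2 and Gpnmb. Srm, spermidine synthase, is uncertain: its counts were 300 and 476 at day 3 and 0 and 24 at day 7, while a separate record, LOC100912604, had 0 and 0 counts at day 3 and 580 and 413 at day 7. The sums of both records were 300 and 476 counts at day 3 and 580 and 437 at day 7, so no fold is given for either. Igfbp5, a binding protein of insulin-like growth factors, fell from 47.3 and 55.0 FPKM to 8.18 and 8.49 FPKM (log2 −2.71 ± 0.14, adjusted p = 4.64e-06), against 2.53 and 1.82 FPKM in uncrushed cells. Car8, a protein related to carbonic anhydrases, fell from 5.07 and 5.92 FPKM to 0.51 and 0.67 FPKM (log2 −3.32 ± 0.46, adjusted p = 0.000972), levels near the uncrushed 0.65 and 0.13 FPKM. Fyb, an adaptor protein of blood cells, fell from 6.33 and 7.18 FPKM to 1.22 and 0.87 FPKM (log2 −2.76 ± 0.18, adjusted p = 1.46e-05) and was even between the day 3 libraries.

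A panel of 17 genes was taken mostly from those that the study assayed by other methods or discussed, which it chose on these samples, so their direction is not independent evidence. Between the days, 6 of them were higher, 7 lower and 4 not called. The lower genes were Runx2, Tes, Tnc, Spp1, Gpc1, Btc and Edn3, all of which remained above uncrushed cells. Osteopontin (Spp1), a secreted phosphoprotein, fell from 101 and 121 FPKM to 33.6 and 30.9 FPKM (log2 −1.88 ± 0.16, adjusted p = 7.15e-05). Gpc1, a cell surface proteoglycan, fell from 133 and 146 FPKM to 50.3 and 58.0 FPKM (log2 −1.46 ± 0.11, adjusted p = 3.76e-05). Tnc, tenascin C, fell from 134 and 112 FPKM to 44.3 and 68.5 FPKM (log2 −1.24 ± 0.19, adjusted p = 0.00171). Tes, a LIM domain protein of focal adhesions, fell from 82.0 and 76.8 FPKM to 50.5 and 48.6 FPKM (log2 −0.77 ± 0.21, adjusted p = 0.0290), a call lost when any 1 library was left out.

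Higher panel genes were Cldn19, Prx, Mal, Sparcl1, Gpr83 and Cd24. Sparcl1, a matricellular protein, rose from 5.53 and 6.87 FPKM to 36.5 and 21.4 FPKM (log2 2.12 ± 0.24, adjusted p = 0.000305), against 895 and 771 FPKM in uncrushed cells. Gpr83, an orphan receptor, rose from 21.9 and 27.5 FPKM to 46.1 and 71.0 FPKM (log2 1.15 ± 0.20, adjusted p = 0.00338), although uncrushed cells had 0.23 and 0.34 FPKM. Cd24, a small surface glycoprotein, was at 92.1 and 88.5 FPKM at day 3 and at 124 and 151 FPKM at day 7 (log2 0.51 ± 0.12, adjusted p = 0.0136, lost without either day 3 library or day 7 replicate 2), against 5.20 and 5.50 FPKM in uncrushed cells. Midkine (Mdk), a heparin-binding growth factor, was at 36.4 and 46.5 FPKM at day 3 and at 50.7 and 47.3 FPKM at day 7 (log2 0.14 ± 0.15, adjusted p = 0.533). The remaining uncalled members were Cited2, Gfra1 and Sema5a, with log2 changes of 0.25, 0.18 and 0.26.

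How far the genes had moved back was described by the mean log2 CPM (counts scaled to library size) of the uncrushed group, without a test since the same day 3 and day 7 libraries chose the genes. Uncrushed cells were nearer to day 7 than to day 3 for 68.3% of the higher genes and for 66.0% of the lower genes, against 53.3% of genes that were not called and 56.2% of all genes tested. Day 5 lay between day 3 and day 7 for 85.0% of the higher and 83.5% of the lower genes. This share was 47.5% over all genes tested and 37.7% of the uncalled genes. Called genes were chosen for a wide gap between the days, with a median absolute log2 change of 0.889 (higher) and 0.717 (lower) against 0.241 (uncalled). A wider gap holds the day 5 mean more often, so no conclusion is drawn from these shares. Against uncrushed cells, 7860 genes (52.5%) differed at day 3 and 7016 (46.9%) at day 7, 2 comparisons that share the uncrushed libraries. Some genes moved away from the uncrushed level instead, and Nkd2, Gfra2, Cadm2 and Epha5 fell to levels below it at day 7. Nkd2, an antagonist of Wnt signaling, was at 31.2 and 29.6 FPKM in uncrushed cells, 36.9 and 38.7 FPKM at day 3 and 5.34 and 6.20 FPKM at day 7 (log2 −2.80 ± 0.11, adjusted p = 2.03e-06). Its relative Nkd1 went the other way, from 2.55 and 1.80 FPKM at day 3 to 15.9 and 12.3 FPKM at day 7 (log2 2.64 ± 0.19, adjusted p = 2.63e-05), with 18.7 and 15.2 FPKM in uncrushed cells.

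The same interval in whole nerve, which holds immune, fibroblast and vascular cells beside Schwann cells, served to show where the purified cells differed. The change from day 3 to day 7 differed between Schwann cells and whole nerve for 1034 of 16829 genes (6.14%), by an interaction term fitted with edgeR to all 16 libraries. In whole nerve itself 18.0% of these genes differed between the days, 9.51% higher and 8.49% lower. In 409 of them (2.43%) the change was higher in Schwann cells and in 625 (3.71%) it was lower, a split of 39.6% higher that was 28.3% under DESeq2. Leaving out 1 library gave between 518 and 807 genes, the lowest without Schwann cell day 7 replicate 1. Mitosis was the list with the most such genes: for 49 of its 64 members the change was higher in Schwann cells than in nerve, and for none was it lower. Mki67 fell by 1.52 on the log2 scale in whole nerve, and its difference of 0.94 ± 0.15 passed the test (adjusted p = 0.00193). The share of these transcripts that other dividing cells bring to the whole nerve was not tested. Of 31 structural myelin genes, 3 differed (Mbp, Ndrg1 and Gpr37l1), all with the lower change in Schwann cells. The difference of Mbp was −0.72 ± 0.17 (adjusted p = 0.0197), a call lost without Schwann cell day 3 replicate 2, Schwann cell day 7 replicate 2, nerve day 3 replicate 2 or nerve day 7 replicate 1. Cldn19 and Prx did not pass this test, with differences of −0.40 ± 0.23 and −0.13 ± 0.30.

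**Figure D5:**
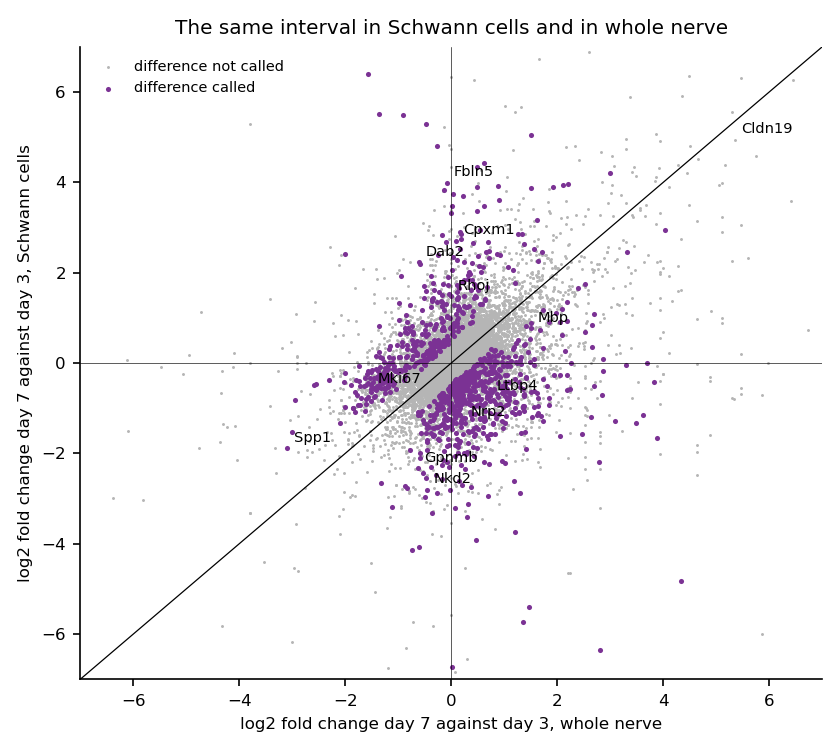
Each point is a gene, with its log2 fold change of day 7 against day 3 in whole nerve on the x axis and in Schwann cells on the y axis, the diagonal marking equal change, and genes beyond 7 in either direction outside the frame. Purple points are genes whose change differed between the tissues, with Fbln5 and Dab2 above the diagonal and Nkd2 and Gpnmb below it.

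Among the lowest adjusted p-values of this difference were those of Dab2, Fbln5, Cpxm1 and Rhoj on the higher side and of Nkd2, Gpnmb, Nrp2 and Ltbp4 on the lower side, although other genes, such as Wnt5a with 3.44 and Car8 with −2.96, differed by more than several of these. Dab2, an endocytic adaptor, rose in Schwann cells from 4.38 and 4.78 FPKM to 24.3 and 21.6 FPKM and fell by 0.61 on the log2 scale in the nerve (difference 2.85 ± 0.16, adjusted p = 1.03e-06). Rhoj, a small GTPase, rose from 7.39 and 6.43 FPKM to 20.9 and 20.3 FPKM (difference 1.5002 ± 0.14, adjusted p = 9.21e-05). At these days, each gene named on the higher side had more FPKM in every whole nerve library than in any Schwann cell library. Fbln5 was at 57.7 to 66.3 FPKM and Cpxm1 at 22.45 to 24.7 FPKM in the nerve. On the lower side this held for Gpnmb and Ltbp4. The part of other nerve cells in these differences was not tested. Nrp2, a receptor for semaphorins, fell from 86.2 and 88.2 FPKM to 37.4 and 38.2 FPKM in Schwann cells, while its log2 change in the nerve was 0.25 (difference −1.56 ± 0.15, adjusted p = 9.21e-05). Ltbp4, which binds latent TGF-beta, fell in Schwann cells from 7.88 and 7.79 FPKM to 5.04 and 5.02 FPKM and rose by 0.74 on the log2 scale in the nerve (difference −1.46 ± 0.14, adjusted p = 9.21e-05).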

How the data were processed

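RNA of immunopanned Schwann cells and of whole sciatic nerve was amplified to cDNA and sequenced in 16 libraries without molecular identifiers. The authors aligned reads with STAR to the rat genome and deposited expected counts and FPKM per gene and library from RSEM. Here these counts, rounded to integers, were tested with edgeR 4.0.16 (R 4.3.3): TMM normalization, its filter on low counts, quasi-likelihood test, adjusted p below 0.05. FPKM, as deposited, gave the levels and entered no test. With 2 libraries a group an exact permutation test cannot go below p = 0.333. On simulated data for this comparison (14586 genes), edgeR called 108 genes, among them 100 of 193 planted changes. A table of the same counts and one of the authors' gene modules were not used.

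The 34 gene lists, 10 marker lists and the rule for named genes were chosen with earlier results of these data known. The rule took the 12 largest rises and falls among called genes with at least 5 FPKM and no overlap between the days, passing over 1 record for its LOC name, the called extremes of each list, the study's panel, 12 genes of interest and 4 genes per direction with the lowest interaction p. Ccnd1, Ctsb, Dhh, Ednrb, Gdnf, Gpr37l1, Hmmr, Kcnj10, Lgals3, Lyve1, Mcm5, Ndrg1, Pmp22, Prc1 and Vim were added after their values were seen, and were not refitted without single libraries. Alternatives were DESeq2 1.42.0, upper quartile scaling, other filters, a fold minimum, a replicate block, other sets of libraries and leaving out each library. Results for some genes are not reported here.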

Additional observations from a re-analysis of the deposited data

Results flagged for a closer look

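The change from day 3 to day 7 differed between Schwann cells and whole nerve, by the interaction term of edgeR over 16 libraries, for 1034 genes and for the named genes given here. The changes of Fbln5, Dab2, Cpxm1 and Rhoj were higher in Schwann cells by 4.07, 2.85, 2.61 and 1.5002 on the log2 scale. Those of Nkd2, Gpnmb, Nrp2 and Ltbp4 differed by −2.33, −1.70, −1.56 and −1.46.

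Mki67 and Cdk1 differed by 0.94 and 0.85, and Spp1 by 1.23 (adjusted p = 0.00364), since Spp1 changed by −3.10 on the log2 scale in the nerve and by −1.88 in Schwann cells. The Cdk1 call was lost without Schwann cell day 3 replicate 2, Schwann cell day 7 replicate 1 or nerve day 3 replicate 2 (adjusted p = 0.0630, 0.0606 and 0.0580). Mbp differed by −0.72. Sparcl1 differed by 1.06 (adjusted p = 0.0409), a call that was kept in only 1 of the 8 fits that left out a library, the one without Schwann cell day 7 replicate 2.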

How the results depend on the processing

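No gene called between day 7 and day 3 had the other sign under any alternative that was run. A required change of at least 2-fold left 304 genes (209 higher and 95 lower), and for the difference from whole nerve 54 (24 and 30). Leaving out 1 library gave 1533 to 2182 genes between the days, 760 to 1031 higher and 773 to 1151 lower. For the difference from nerve it gave 518 to 807, 205 to 349 higher and 313 to 501 lower, with 1 library left in an arm that is assumed to vary like the other groups. Without a filter that difference had 1840 genes (1267 lower), and DESeq2 called 1014 lower; the cause was not tested. Of 105 named genes called between the days, 79 stayed called in each fit without 1 library.

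Replicate numbers did not pair the libraries (correlation of deviations −0.022 between the days), and the replicate block gave 2851 genes, 2793 of them shared, and 958 for the difference from nerve. It lost 8 of the 105 named calls.

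Uncalled genes changed sign without 1 library: between the days Cited2 (−0.17 to 0.58), Mdk (−0.0163 to 0.35), Sema5a (−0.0363 to 0.50) and Sox2 (−0.29 to 0.0592), and against nerve Prx (−0.54 to 0.21), Mdk (−0.39 to 0.0010), Sema5a (−0.26 to 0.29, and −0.0134 with DESeq2), Sox2 (−0.0928 to 0.49), Ngfr (−0.18 to 0.56) and Ptprc (−2.45 to 0.38).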

Other observations

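Further gene lists are read beside 10.2% of all genes higher and 10.7% lower, with counts without 1 library in the order day 3 replicate 1, day 3 replicate 2, day 7 replicate 1 and day 7 replicate 2. Of 31 proteases and inhibitors of the matrix, 5 were higher and 9 lower (3 higher without day 7 replicate 1), and Plaur, the urokinase receptor, fell from 2.37 and 3.97 FPKM to 0.67 and 0.24 FPKM (log2 −2.83 ± 0.52, adjusted p = 0.00421). Of 35 genes of the unfolded protein response and heat shock, 2 were higher and 8 lower, and without 1 library 1 was higher and 5, 2, 5 and 6 were lower. Manf, a secreted factor of endoplasmic reticulum stress, fell from 66.7 and 71.9 FPKM to 46.8 and 38.4 FPKM (log2 −0.80 ± 0.12, adjusted p = 0.00160), while the chaperone Dnajb1 rose from 22.4 and 22.1 FPKM to 42.9 and 53.2 FPKM (log2 1.01 ± 0.13, adjusted p = 0.000651). Of 32 genes of MHC and the interferon response, 4 were higher and 4 lower (2 higher without any 1 library, 2 lower without day 3 replicate 2), and Mx1, an antiviral GTPase, rose from 0.09 and 0.15 FPKM to 1.39 and 1.76 FPKM (log2 3.41 ± 0.47, adjusted p = 0.000954).

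Of 32 genes of Polycomb, histone demethylases and deacetylases, 7 were higher and 3 lower (3, 4, 4 and 6 higher and 1 lower without 1 library), and Hdac9 fell from 7.92 and 5.10 FPKM to 2.60 and 2.58 FPKM (log2 −1.32 ± 0.20, adjusted p = 0.00141). Of 37 genes of Hippo, Wnt and TGF-beta signaling, 7 were higher and 10 lower (4 higher without any 1 library), and of 23 genes of Notch and Hedgehog signaling, 3 were higher and 3 lower (1, 1, 2 and 2 lower without 1 library). Gas1, a Hedgehog coreceptor, rose from 1.29 and 1.13 FPKM to 3.52 and 5.09 FPKM (log2 1.73 ± 0.22, adjusted p = 0.000542). Sfrp5, a secreted Wnt antagonist, had 22 pooled counts at day 3 and 1 at day 7, a ratio of 16.4 with an exact 95% counting interval of 2.6 to 675.0 for counting error only, against 29.4 and 26.7 FPKM in uncrushed cells.

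Among marker lists with few tested members, 2 of 2 for neutrophils and mast cells were lower (3 of 4 tested, 1 of 2, 1 of 4 and 2 of 4 without 1 library) and 0 of 2 for T, B and NK cells were called. For satellite glia 1 of 4 and for perineurial cells 1 of 6 were higher and none was lower. For endothelial cells 1 of 5 was higher and 1 lower, for pericytes and smooth muscle 1 of 9 was higher and 1 lower, and for fibroblasts 1 of 12 was higher and 2 were lower. Without day 3 replicate 1 the lower counts of these 3 lists were 3, 2 and 4, and without day 3 replicate 2 they were 0, 0 and 2. Of 4 tested markers of muscle, fat and red blood cells, none was higher and 1 (Myh1) was lower, and none was lower without day 3 replicate 2. The summed levels of the list, 92.0 and 23.8 FPKM at day 3 and 11.9 and 110.6 FPKM at day 7, stood far apart within each day.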
